A study of Drosophila melanogaster with 2 samples.

Results

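The genes described are the 4 that encode the kinase module of Mediator in Drosophila melanogaster: skd, kto, Cdk8 and CycC, out of 13945 protein-coding genes on the 6 chromosome arms. They were chosen by gene name after their peaks in these data were known, so the positions, scores and ranks given for them are descriptions, selected on the measured values, and carry no test. The measurements are ChIP-seq peak lists for the protein encoded by CG3407, which the labels class as a transcription factor, made from whole embryos. ChIP-seq sequences the DNA fragments that an antibody pulls down together with a protein. There was 1 group with 2 biological replicates, and no comparison of conditions is possible.

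Both replicates came from the same transgenic line, strain CG3407-GFP, which stably expresses CG3407 with GFP fused to its C terminus. Embryos of mixed sex were collected across the window from 0 to 14 h, so a peak averages over all embryonic stages and cell types in that window, and sites used in few cells cannot be told apart from sites used weakly in many. Chromatin was sonicated to fragments of 200 to 800 bp. The free text of the labels calls these libraries an input control, whereas the assay title and antibody field name a transcription factor ChIP; they are treated here as ChIP libraries. Control peaks, untagged flies and transcript levels were not analysed here.

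Mediator is a large complex that passes signals from DNA-bound factors to RNA polymerase II. Its kinase module binds the core complex reversibly. It consists of a cyclin-dependent kinase, Cdk8, its cyclin, CycC, and the large subunits Med12, encoded by kto (kohtalo), and Med13, encoded by skd (skuld); from work in yeast and human cells, Med13 links the module to core Mediator and Med12 activates the kinase. In flies, kto and skd are known for roles in patterning the developing eye and wing.

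4 lists of intervals were deposited for the dm6 assembly. Each replicate has 30000 candidate intervals that mix peaks with background, a pooled list of 30000 candidates was called on both replicates together, and an IDR list holds 4089 intervals. IDR, the irreproducible discovery rate, is used to cut a ranked list where the lists compared cease to concur. How it was applied here is not given. The IDR list was identical to the 4089 highest pooled candidates, and 120 of its peaks overlapped no candidate of replicate 1. A place in the list is thus not in itself agreement of the 2 replicates. Each interval has a summit and a score given by the authors' peak caller. The scale of the score is specific to a list, so scores are compared within a list and ranks (1 is the highest score) between lists. Read totals were not analysed here and the depth is unknown.

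5 IDR summits lay in or within 5 kb of the 4 genes, 4 of them at skd and 1 beside kto. The DNA under them is shown because the description turns on these sites, read on the plus strand from the RefSeq copy of dm6, 101 bp around each summit and 299 bp around the strongest. Capitals mark matches, on either strand, to the 8 short words searched: the forkhead core TGTTTAC, the word TATTTAC and the word TGTTTGC, the DRE TATCGATA, the GAGA element GAGAG, the Zelda site CAGGTAG, the E-box CAGCTG and the TATA box TATAAA.
Intron of skd, IDR rank 12 (chr3L:21009717-21010015, plus strand): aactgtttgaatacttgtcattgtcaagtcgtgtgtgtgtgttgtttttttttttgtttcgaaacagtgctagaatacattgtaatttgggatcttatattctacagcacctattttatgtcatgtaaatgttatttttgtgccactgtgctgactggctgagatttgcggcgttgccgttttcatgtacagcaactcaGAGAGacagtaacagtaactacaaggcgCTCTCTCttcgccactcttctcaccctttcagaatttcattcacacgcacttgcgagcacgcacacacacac
Intron of skd, IDR rank 1416 (chr3L:21007861-21007961, plus strand): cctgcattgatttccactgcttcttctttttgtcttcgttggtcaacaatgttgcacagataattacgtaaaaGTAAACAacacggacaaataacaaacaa
Between the starts of skd and Pdss2, IDR rank 3163 (chr3L:21027771-21027871, plus strand): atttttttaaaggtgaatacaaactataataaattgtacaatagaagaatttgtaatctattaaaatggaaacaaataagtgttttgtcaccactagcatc
Between the starts of CG10584 and Polr3E, upstream of skd, IDR rank 428 (chr3L:21031514-21031614, plus strand): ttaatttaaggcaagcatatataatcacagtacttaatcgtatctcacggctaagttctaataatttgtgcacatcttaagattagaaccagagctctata
Papss intron, 3′ of kto, IDR rank 1936 (chr3L:19847134-19847234, plus strand): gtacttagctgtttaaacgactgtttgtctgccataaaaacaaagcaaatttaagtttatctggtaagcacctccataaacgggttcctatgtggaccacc

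For comparison, the 100 bp just before the outer transcription start site (TSS) of skd, kto and Cdk8 are shown in the direction of the gene, together with the 25 bp that separate the start of CycC from that of UQCR-C1. None of these windows holds the summit of an IDR peak.
skd (chr3L:21027435-21027534, minus strand): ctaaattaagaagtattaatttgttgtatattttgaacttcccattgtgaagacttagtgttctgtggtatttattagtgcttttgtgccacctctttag
kto (chr3L:19836514-19836613, plus strand): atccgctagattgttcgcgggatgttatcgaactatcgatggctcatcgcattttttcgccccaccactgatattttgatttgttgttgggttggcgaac
Cdk8 (chr3L:9838671-9838770, minus strand): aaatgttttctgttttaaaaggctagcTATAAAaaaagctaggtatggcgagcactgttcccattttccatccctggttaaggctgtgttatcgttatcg
CycC to UQCR-C1 (chr3R:14890206-14890230, plus strand): tattttccacgaaCAGCTGactggc

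Within 50 bp of the summit, a match was found at 1 of the 5 summits: the forkhead core at the IDR rank 1416 site, 23 to 29 bp from the summit. This word occurs in 5.77% of all IDR windows and 3.72% of all pooled candidate windows of the same length. The other 7 words were at no member summit within 50 bp. Their shares in IDR and pooled windows were 8.36% and 4.41% for TATTTAC, 6.26% and 4.94% for TGTTTGC, 1.03% and 0.687% for the DRE, and 10.6% and 11.9% for the GAGA element. They were 0.587% and 0.457% for the Zelda site, 3.62% and 4.50% for the E-box and 22.4% and 15.7% for the TATA box.

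In the wider windows shown, the rank 12 site held 3 GAGAG matches, starting 50, 78 and 80 bp from its summit, the last pair overlapping. Of all IDR windows of 299 bp, 36.2% hold at least 1. The other summits are shown with 101 bp only. Within 100 bp of the summit, the rank 1416 site also held GAGAG, as did 23.7% of all IDR windows of that length. The rank 428 site held the TATA word, as did 36.3%. The TATA word was in the 100 bp before Cdk8, as in 20.1% of such windows over all protein-coding genes. The E-box word was in the 25 bp before CycC, as in 2.32% of windows of that length. The GC content within 50 bp of the summit was 42.6% at the rank 12 site, 35.6% at rank 1416, 23.8% at rank 3163 and 31.7% at rank 428. It was 39.6% at the site beside kto. Over all IDR windows the median was 33.7%, with quartiles at 27.7% and 40.6%, so the strongest site was richer in GC than most and the skd–Pdss2 site poorer. A match is a string of letters and not a measured binding site.

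Of the scaffold subunits, skd (FBgn0003415, chr3L:20992814-21027434, minus strand) is a long gene of 34.6 kb with 4 annotated transcripts and 2 TSSs that lie 1230 bp apart. It held the strongest site near any of the 4 genes. The interval, chr3L:21009529-21010144, had its summit at 21009866 and an IDR score of 5402, rank 12 of 4089. In replicate 1 the candidate there scored 2284 and ranked 10 of 30000. In replicate 2 it scored 3123 and ranked 12. Both replicates thus placed it among their highest peaks, with summits 10 bp apart. Among the 50 highest IDR peaks, 44 ranked within the first 50 in both replicates.

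The summit lay 17568 bp inside skd from its outer TSS, in intron 3 of all 4 transcripts. This intron, chr3L:21006802-21012210, is 5409 bp long, and the summit was 2345 bp from the exon before it and 3065 bp from the exon after it. The nearest TSS was that of scaRNA:PsiU6-40, a small Cajal-body RNA gene inside skd, at 3346 bp, so no annotated start of a protein-coding gene was close. The interval was 616 bp wide against a median of 416 bp, and 0.831% of IDR intervals were at least as wide. Its score was 20.6 times the IDR median of 262, and it was the 6th highest of 1642 intronic IDR summits. Of the 11 higher IDR peaks, 5 were intronic as well, 2 were at promoters (within 500 bp of a TSS), 2 were intergenic, 1 was in a 5′ UTR and 1 in a non-coding exon.

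The other IDR summit in the gene body, at 21007911 in the same intron, was much weaker, with a score of 327 and rank 1416. Replicate 2 had a candidate there with a score of 224 and rank 1107. Replicate 1 had no candidate there among its 30000. Support for it therefore came from replicate 2 and the pooled list alone; 120 of the 4089 IDR peaks (2.93%) lacked a replicate 1 candidate, 21 of them at rank 1416 or higher. The interval, chr3L:21007846-21008005, was 160 bp wide.

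Within each list, the rank 12 site far outscored the other sites in the body of skd. A ratio of scores is not a fold of signal, since the scale of the score is not stated. The score was 16.5 times that of the next site in the gene body in the IDR and pooled lists. The ratio was 30.3 in replicate 1, whose next site was at 21024641 with rank 3500, and 13.9 in replicate 2, whose next site was the one at 21007905. In all, the pooled list had 14 summits in the body of skd, replicate 1 had 7 and replicate 2 had 19. The lowest of these scored 44.2, 37.5 and 25.3 in the respective list.

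**Figure D1:**
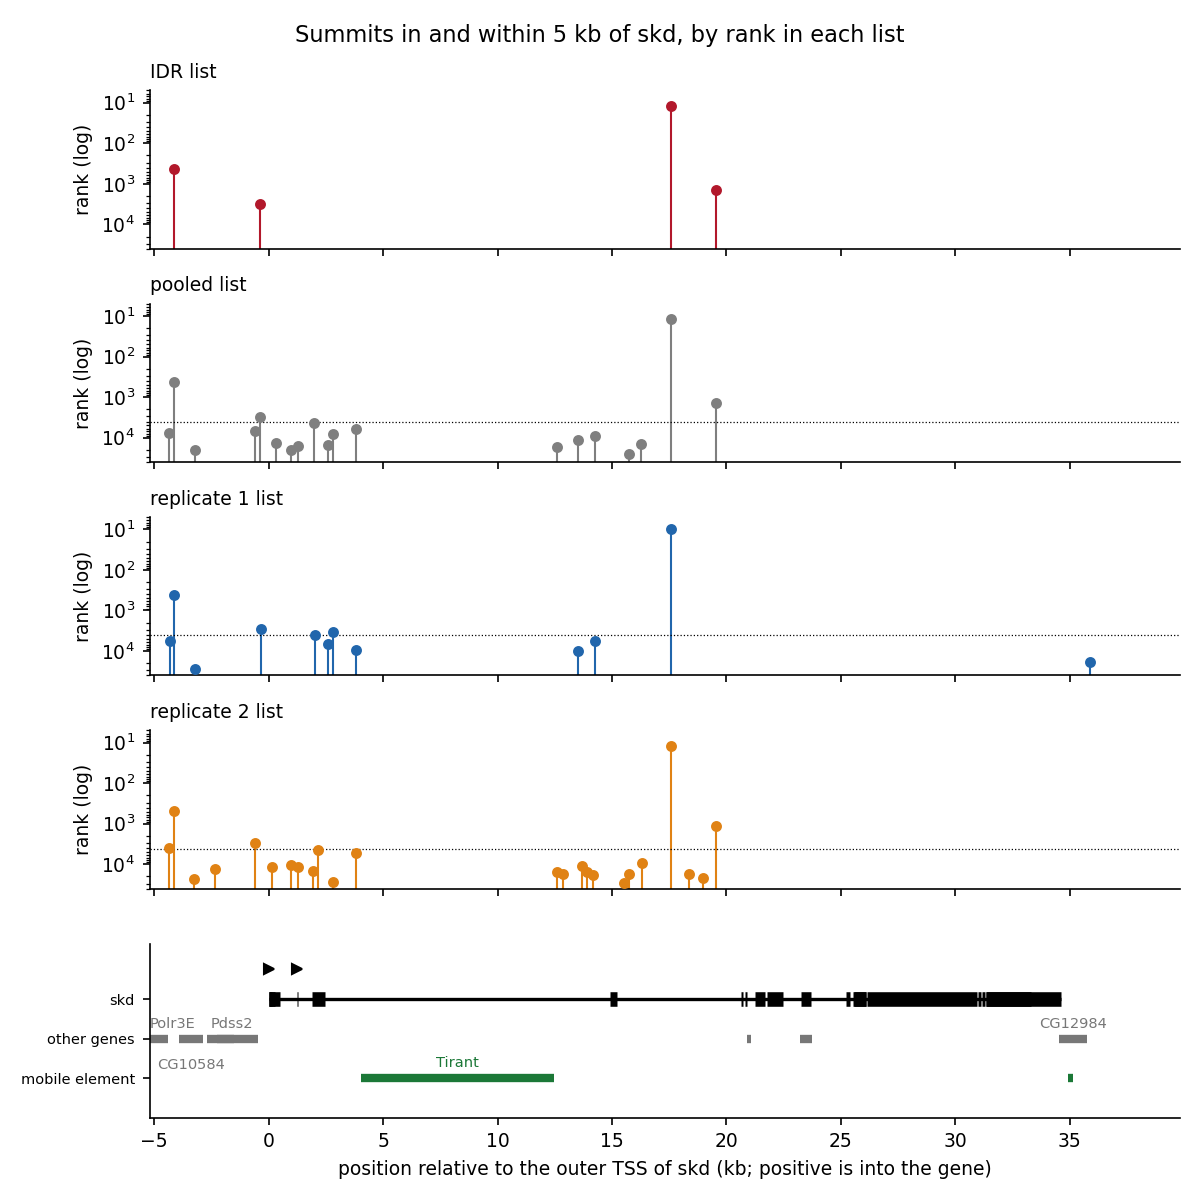
Summits in skd and within 5 kb of it, by position relative to the outer TSS of skd (kb, positive into the gene) and by rank in each of the 4 lists (log axis, highest score at the top). The dotted line is rank 4089, the end of the IDR list; below, exons of skd are black boxes, arrowheads its TSSs, grey bars other genes and green bars mobile elements. The site of IDR rank 12 stands at 17.6 kb in every list, while the site of rank 1416 is missing in replicate 1.

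At the start of skd the peak was near the lower end of the IDR list and the replicates placed their candidates apart. The IDR interval chr3L:21027613-21028028 had its summit at 21027821, with a score of 194 and rank 3163. In replicate 1 the candidate scored 87.1, ranked 2828 and had its summit at 21027751. In replicate 2 it scored 121, ranked 3072 and had its summit at 21028033. The replicate summits were 282 bp apart, compared with a median of 21 bp and an upper quartile of 47 bp over the 3953 IDR peaks that overlapped a candidate in each replicate. Only 10 of these peaks (0.253%), this one included, had replicate summits at least as far apart. The pooled list has a separate, weaker candidate at 21028023, with a score of 111 and rank 6927, 108 bp inside Pdss2 and 10 bp from the replicate 2 summit. The replicate 1 summit was 70 bp from the IDR summit and the replicate 2 summit 212 bp, and whether both mark 1 site was not tested.

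The gap matters for the gene assignment because skd shares this region with Pdss2, which encodes a subunit of the enzyme that makes the side chain of coenzyme Q. Pdss2 starts at 21027915 on the opposite strand, 481 bp from the outer TSS of skd. The IDR summit was 387 bp upstream of skd and 94 bp upstream of Pdss2. The replicate 1 summit was 317 bp upstream of skd and 164 bp upstream of Pdss2. The replicate 2 summit was 599 bp from the skd TSS and 118 bp inside Pdss2, outside the 500 bp window of skd. All 3 summits were closer to the start of Pdss2, and the lists do not say which gene it belongs to.

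Weaker candidates lay across both starts of skd. In the pooled list they were at 21026166, 38 bp inside the inner TSS, with rank 16053, at 21026451 with rank 20244 and at 21027119 with rank 13354. Replicate 2 had 3 such candidates, the highest with rank 10437, and replicate 1 had none besides the one shared with Pdss2. In the 5′ UTR 755 bp after the inner TSS, a pooled candidate at 21025449 scored 154 and ranked 4414, just past the lowest IDR score of 163. Replicate 1 had a candidate near it, at 21025410, with rank 4061. Replicate 2 had one at 21025296 with rank 4442, and a weaker one closer to the pooled summit, at 21025495, with rank 14538. The site thus fell close to the limit in the pooled and replicate 1 lists, and in replicate 2 only by the higher-scoring candidate.

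Upstream of skd, the IDR interval chr3L:21031356-21031771 had the second highest score of the region. Its score was 631, rank 428, with rank 405 in replicate 1 and rank 479 in replicate 2, and the summit was at 21031564 in both. It lay 4130 bp from the skd TSS but 204 bp upstream of the start of CG10584, which is transcribed away from Polr3E, the gene of an RNA polymerase III subunit. Of the 4 IDR summits near skd it was the one with identical summits in both replicates, and it sat at the starts of other genes.

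**Figure D2:**
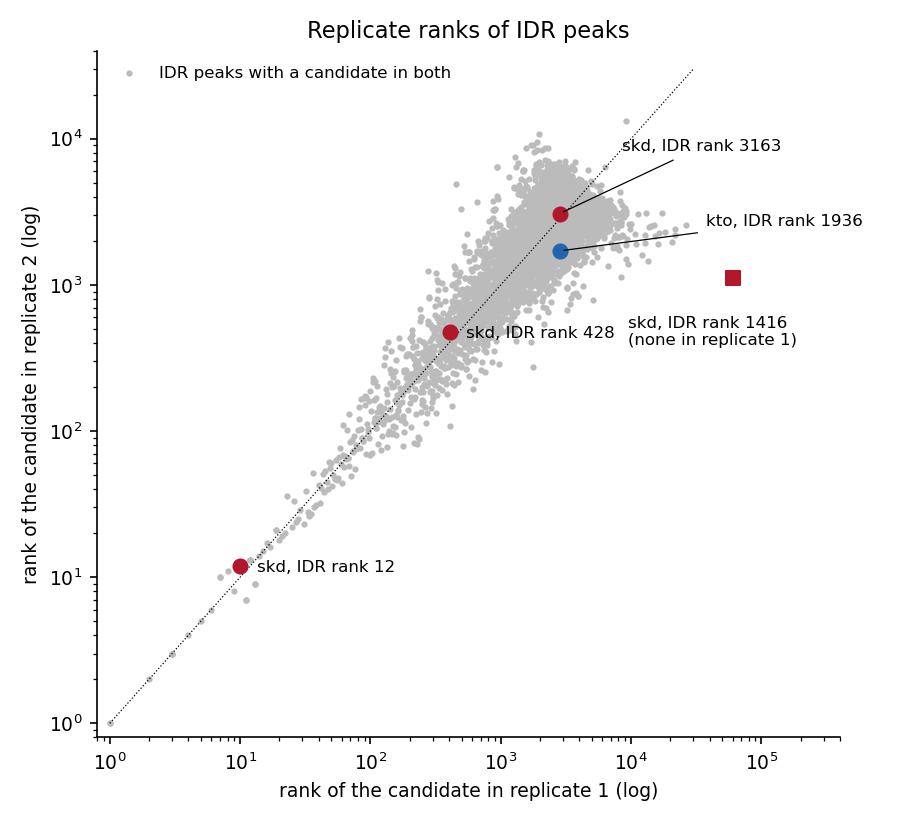
Rank of the replicate 1 candidate against rank of the replicate 2 candidate (both log axes) for IDR peaks that overlapped a candidate in each (grey); the dotted line marks equal ranks. Sites near skd are red and the site beside kto is blue; the red square is the skd site of IDR rank 1416, drawn at the right because replicate 1 had no candidate there, and the site of rank 12 sits at ranks 10 and 12.

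The gene of Med12, kto (FBgn0001324, chr3L:19836614-19844944, plus strand, 8331 bp), had no candidate at either of its 2 TSSs or in its body in any of the 4 lists. Its nearest IDR summit was at 19847184, 2240 bp past its end, with a score of 272 and rank 1936. The replicate 1 candidate there scored 86.8 and ranked 2843. The replicate 2 candidate scored 175 and ranked 1709, and the replicate summits were 35 bp apart. The site lay in the next gene, Papss, which encodes the enzyme that makes the sulfate donor PAPS, 125 bp upstream of an inner TSS of that gene. The pooled list had 3 more candidates in this flank, with ranks from 14814 to 25837. Replicate 2 also had one at 19845730, 786 bp past kto and 437 bp after the outer TSS of Papss, with rank 2734.

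Cdk8, the kinase (FBgn0015618, chr3L:9837080-9838670, minus strand, 1591 bp), had no candidate in the IDR, pooled or replicate 1 list in its body or within 5 kb. Replicate 2 had 4 candidates, and 1 was at the TSS: its summit at 9838744 was 74 bp upstream, with a score of 25.8 and rank 28111 of 30000. With a lowest score of 24.5 in that list, this candidate was close to its end, and no other list held it. The others were at the start of I-2, a gene for a protein phosphatase 1 inhibitor, with rank 11026, and in introns of RasGAP1, a negative regulator of Ras, with ranks 21371 and 29107.

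CycC, the cyclin partner (FBgn0004597, chr3R:14889004-14890205, minus strand, 1202 bp), had none in the body or at the TSS in any list. Its start is 26 bp from that of UQCR-C1, a gene for a subunit of mitochondrial complex III, and no candidate lay at this shared start. Replicate 2 alone had candidates in the flanks, 5 in all. They were at Rrp6, which encodes an exosome nuclease, with rank 6646, at CG33331 with rank 14446, at Dph2, a gene of diphthamide synthesis, with rank 28895, and at CG14860 with ranks 5583 and 15532. The flank signal thus sat at the starts of neighbouring genes.

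**Figure D3:**
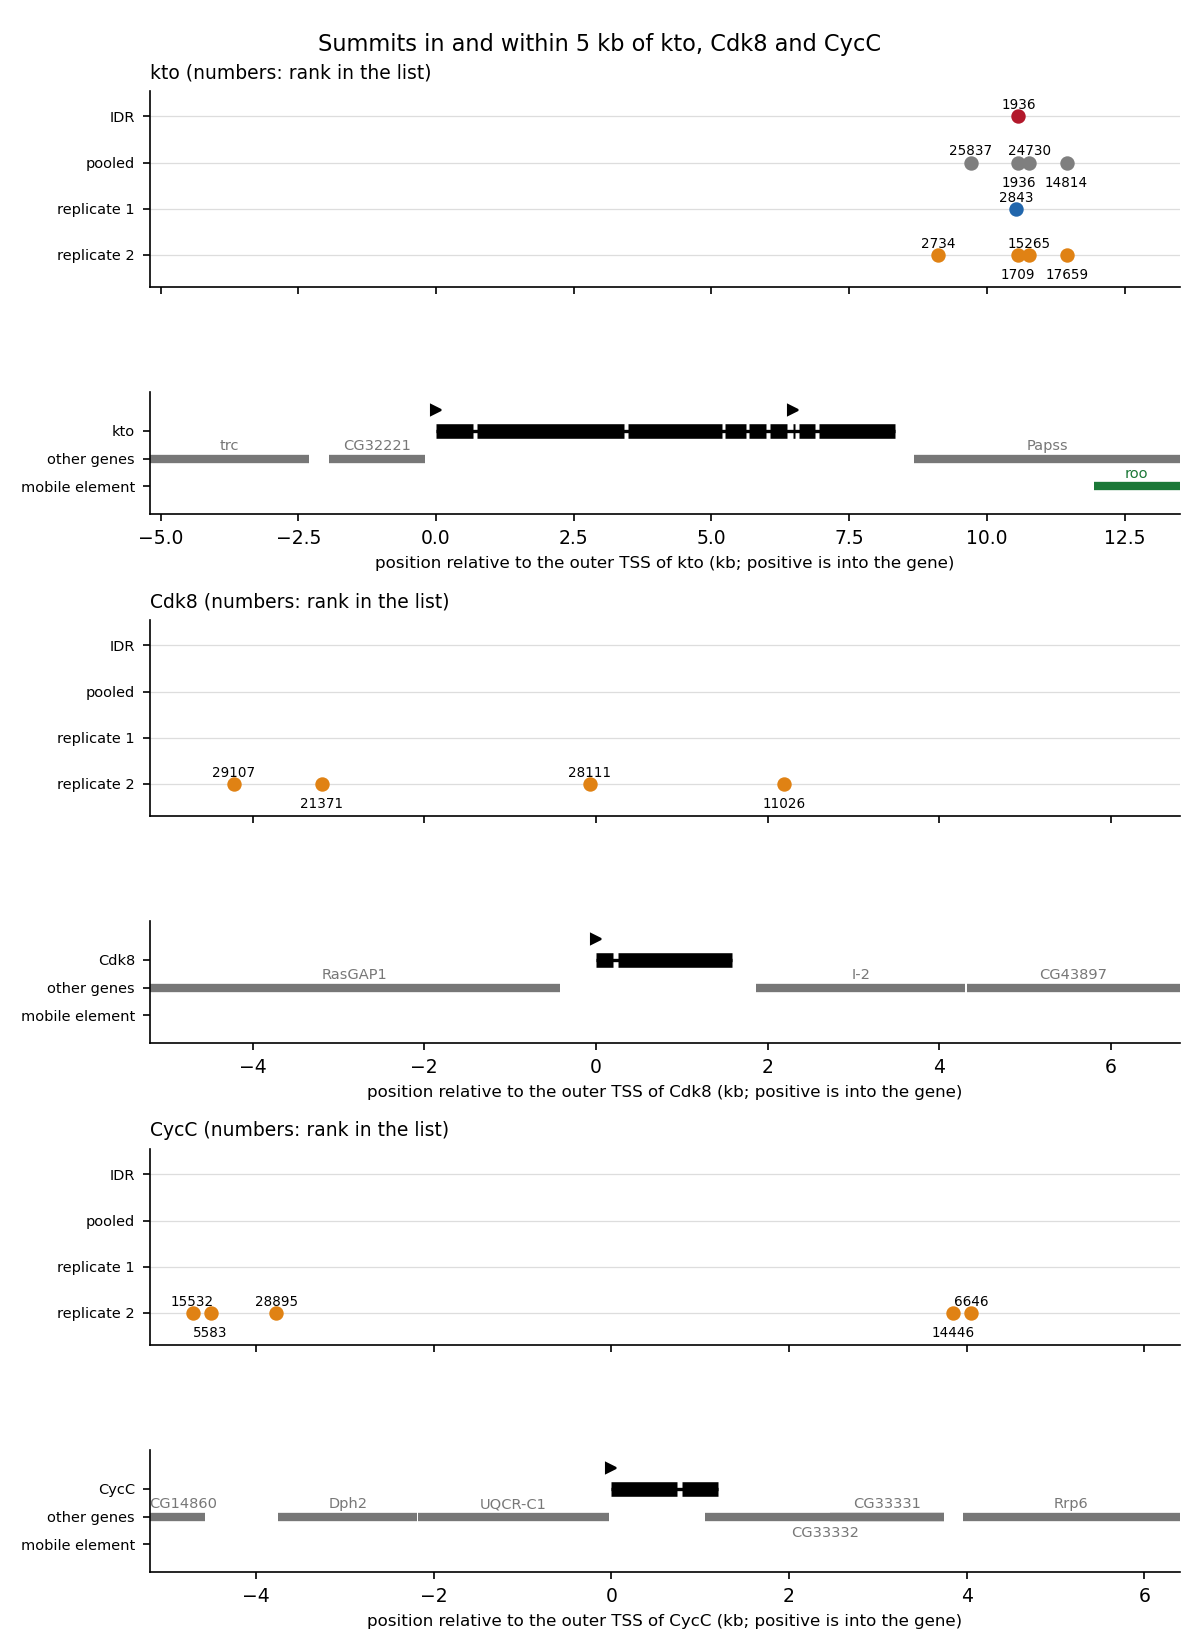
Summits within 5 kb of kto, Cdk8 and CycC by position relative to the outer TSS of the gene (kb, positive into the gene), with 1 line for each list and the rank printed at each summit. Black boxes are exons of the gene, arrowheads its TSSs, grey bars other genes and the green bar a mobile element; all summits at kto lie past its 3′ end in Papss, and all at Cdk8 and CycC are from replicate 2.

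The absence of candidates can be set beside other genes of like length. In none of the 3 candidate lists did 4999 of the 13945 protein-coding genes (35.8%) have a summit at a TSS or in the body. Among genes of 5 to 10 kb, the length class of kto, this held for 223 of 1507 (14.8%). Among genes of 1 to 2 kb, the class of Cdk8 and CycC, it held for 1801 of 3845 (46.8%). An empty gene was therefore common at the length of CycC and less so at that of kto. Absence from these lists means that no candidate reached the last rank, and does not show that the protein was absent.

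The values just inside and outside the limits used to collect summits were as follows. At 500 bp, the IDR summit just inside was the one 387 bp from a TSS of skd. The next was 4090 bp from a TSS of kto, with rank 1936, and the next for skd was at 4130 bp. At 5 kb, the outermost IDR summit inside was also the one at 4130 bp; the next upstream of skd was at 10130 bp, with a score of 299 and rank 1669, and the next downstream at 16235 bp, with rank 3571. Outside the kto window, the closest IDR summit was 18601 bp upstream, with rank 2286. The nearest IDR summit to Cdk8 was 17275 bp upstream, with a score of 951 and rank 176, and that to CycC was 8424 bp upstream, with a score of 184 and rank 3437.

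Read as counts over genes, 1 of the 4 had an IDR summit within 500 bp of a TSS, beside 14.1% of all protein-coding genes. With the 4089 highest candidates of a single replicate in place of the IDR list, the background was again 14.1% in each replicate. The count was 1 from replicate 1 and 0 from replicate 2, since the replicate 2 summit was 599 bp from skd. The count was also 0 with a window of 250 bp. In the pooled list of 30000 candidates it was 1 of 4, beside 41.6% of genes. An IDR summit in the gene body was found for 1 of the 4, beside 10.6% of genes, and in the body or within 5 kb for 2 of the 4, beside 40.4%. Because the members were chosen on these data, nothing is read from these shares, and the counts do not set the kinase module apart from other genes.

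The body count of skd can be set beside that of long genes, and whether length affects it was not tested. Of the 553 genes at least as long as skd, 286 (51.7%) had an IDR summit in the body. Having 2 or more such summits applied to 3.81% of all genes, and exactly 2 to 272 genes. That share is over genes of every length, most of them shorter than skd. It was not computed for the 553 long genes, so the 2 summits of skd are not read as rare for its length. By the highest IDR score in the body or at a TSS, skd came 8th of the 2665 genes with any. Next above it were Smr, a co-repressor gene, with a score of 5784 and 11 summits in its body, and CG1677, with 5527 and 17 summits. Next below were Dscam1, a cell-surface receptor gene with many splice forms, with 4021 and 2 summits, and fz, the gene of a Wnt receptor, with 3483 and 6 summits. The genes with 2 summits in the body and the next highest scores after Dscam1 were CG1888 with 2017, HmgD and HmgZ, which encode HMG-box chromatin proteins and share a peak of 1726, and RluA-1 with 1612. The number of summits thus varied widely among genes of like score, but their lengths differed too. Smr is 58416 bp long, CG1677 124709 bp, Dscam1 63976 bp and fz 94297 bp, against 34621 bp for skd.

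**Figure D4:**
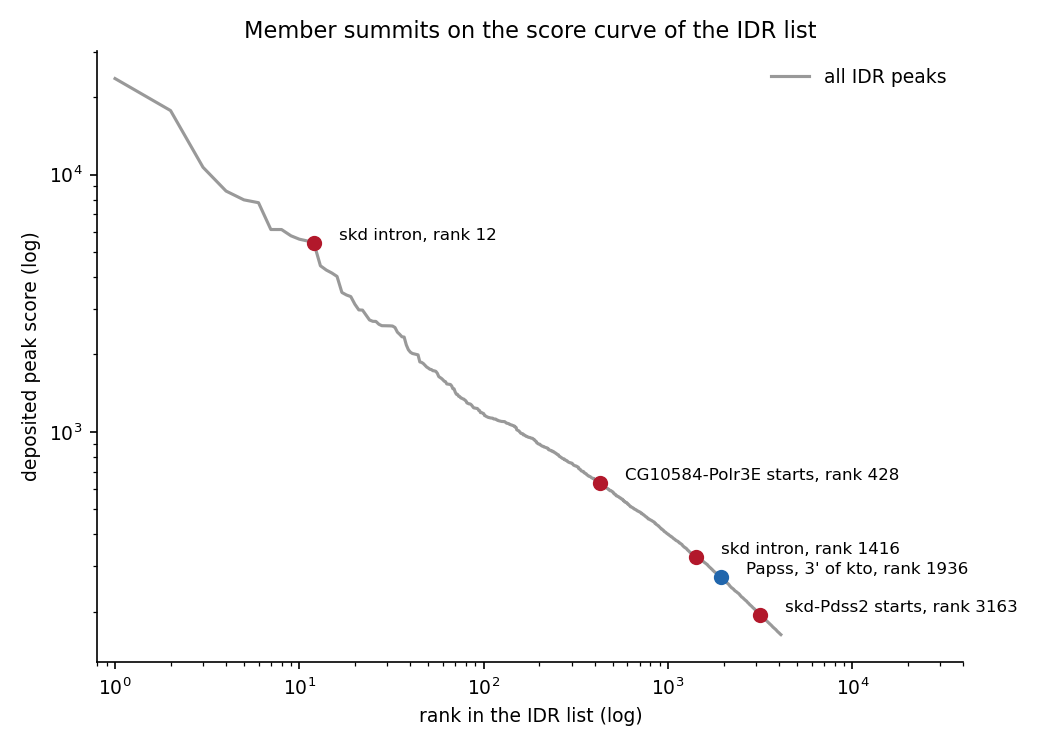
Deposited score against rank in the IDR list (both log axes) for all 4089 peaks (line) and for the 5 summits in or within 5 kb of the 4 genes (points; red at skd, blue beside kto). The intronic skd site, with a score of 5402, stands far up the curve, and the summit between skd and Pdss2, with 194, is near its lower end.

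The remaining genes of Mediator and of the transcription machinery were described in the same way, with lists drawn up when earlier results of these data were known. Of 26 core Mediator genes, 6 (23.1%) had an IDR summit at a TSS, beside 14.1% of all genes. The highest was at MED27, with a score of 427 and rank 899, 128 bp upstream, in a start region shared with elm. MED30 had 377 and rank 1116 in a region shared with Rev1, which encodes a translesion DNA polymerase. MED17, a subunit of the head of the complex, had 358 and rank 1214 in a region shared with CG12321. MED7, of the middle of the complex, had 292 and rank 1733, shared with the condensin II gene Cap-H2. MED31 had 204 and rank 2948, shared with CG9775 and slx1, and MED4 had 195 and rank 3154, shared with an antisense RNA gene.

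In all 6 core Mediator genes the summit lay upstream of the TSS, by 48 to 215 bp, another gene started within the same window, and no IDR summit lay in the body. The intronic site of skd differs from these in position, but the 6 genes are only 962 to 2194 bp long, against 34.6 kb for skd. An IDR summit in the body was found for 10.6% of all genes, so its lack in these short genes is not read as a difference. The skd–Pdss2 site is like that of MED4 in rank. A pooled candidate was at a TSS of 14 of the 26 core genes and 1 of the 4 kinase module genes, beside 41.6% of all genes. A candidate of each replicate was at a TSS of 12 and 1 of them, beside 28.9% of all genes. For skd, the 1 kinase module gene, the replicates did not share a place. The candidate of replicate 1 was 317 bp upstream of the outer TSS, and those of replicate 2 were inside the gene, with ranks from 10437 to 11510.

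Among 7 genes of other transcription kinases and their cyclins, 2 had an IDR summit at a TSS. Cdk12, whose product phosphorylates RNA polymerase II, had a score of 376 and rank 1118, 193 bp upstream, in a region shared with SAK, the gene of a centriole-duplication kinase. CycT, the cyclin of the elongation factor P-TEFb, had a score of 213 and rank 2764, 156 bp inside the gene, with no candidate of replicate 1 at a TSS. Cdk7, Cdk9, CycH, CycK and Mat1 had none. Over all protein-coding genes 14.1% had such a summit, so its lack at Cdk8, CycC or Cdk9 is the usual state. No pattern over kinases and cyclins is read from these genes: CycT had a summit and Cdk9 none, whereas Cdk12 had one and CycK none.

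Of 12 RNA polymerase II subunit genes, 4 had an IDR summit at a TSS. Polr2B, the gene of the second largest subunit, had a score of 548 and rank 563 in a region shared with 140up. Polr2J had 343 and rank 1296, shared with CG15141. Polr2F had 261 and rank 2061, and Polr2H had 260 and rank 2072, shared with CG11247. All 4 summits were 48 to 100 bp upstream of the TSS. These shares were higher than 14.1% in each list, but no test was made of lists chosen in this way.

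**Figure D5:**
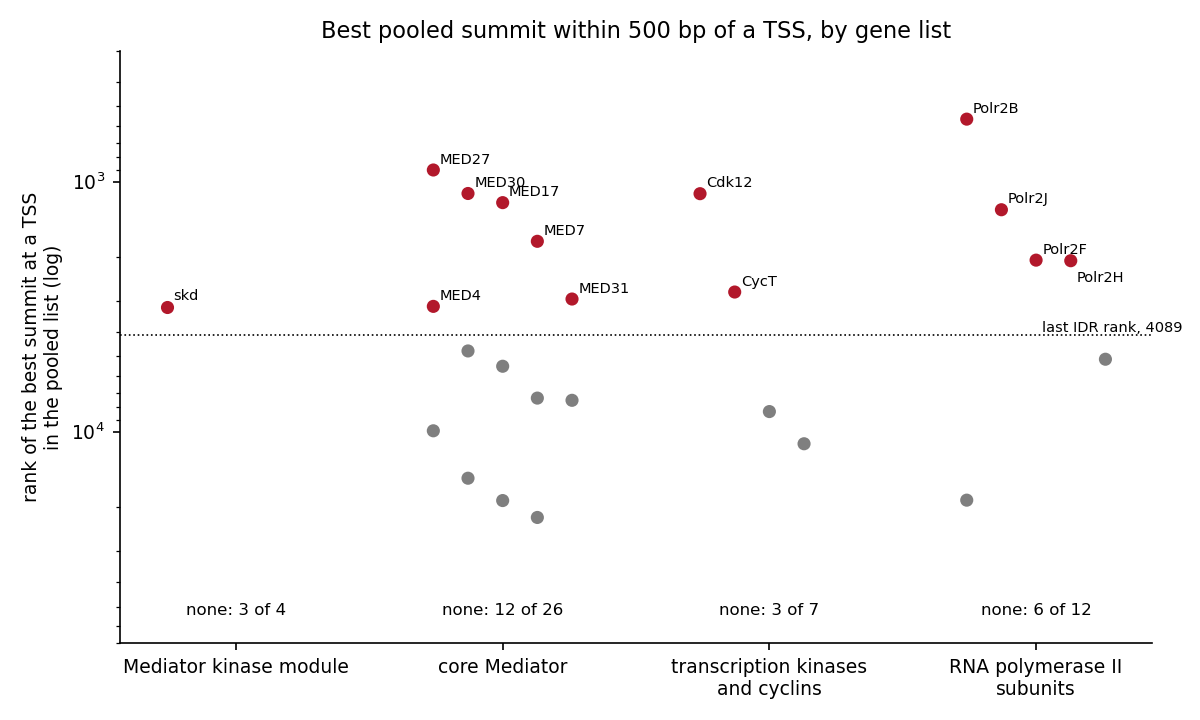
Rank in the pooled list (log axis, highest score at the top) of the best summit within 500 bp of a TSS, for each gene of 4 lists; red points are ranked within the 4089 of the IDR list, whose end is the dotted line, and grey points are below it. The number of genes with no pooled candidate at a TSS is printed below each list: 3 of 4 for the kinase module and 12 of 26 for core Mediator.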

How the data were processed

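Whole-embryo ChIP-seq was analysed from the deposited peak lists of 2 biological replicates (1 group). Per the file headers, each replicate list and the pooled list were derived by the authors from alignments to dm6 and 1 control file, and the IDR list from those lists; which aligner, caller and cut-off produced them is not given in the sources used here. Peaks were ranked by the deposited score of each interval, which has no stated unit. The deposited summit offset was added to the interval start to place each summit, and positions are 1-based. Genes came from the Ensembl release 115 annotation and sequence from RefSeq, both of the same assembly.

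Summits were collected within 500 bp of any TSS, in the gene body and within 5 kb. A replicate candidate belonged to an IDR peak if it overlapped it by at least 1 bp; the highest-scoring one was used. Short words were looked for on either strand, up to 50 bp from a summit. Counting was tested on simulated intervals with planted summits. Python 3.11.15, pandas 2.3.3, numpy 2.4.6 and matplotlib 3.10.9 were used.

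The members, gene lists and words were chosen with earlier results of these data known. TATTTAC and TGTTTGC were taken from words found enriched earlier in these peaks. Genes were named by rule: the 4 members, list genes with an IDR summit at a TSS, genes at or around a member's IDR summit, the 2 genes next above and below skd by score, and up to 5 genes with as many summits in the body; the other neighbours at candidates of kto, Cdk8 and CycC, and the list genes without an IDR summit, were named after their values were seen. Cdk10 did not match the annotation and was left out. No test was made, because the members were chosen on the readout and there is 1 group. Alternatives were other TSS windows, flanks, replicate matching, word windows, the higher-scoring part of the IDR list and each replicate alone. No paired analysis was possible because there is 1 group.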

Additional observations from a re-analysis of the deposited data

How the results depend on the processing

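Of 39 alternatives over 8 counts and shares, 30 stayed within 1.5 times the reported value and 9 did not. The count of kinase module genes with an IDR summit at a TSS (1) fell to 0 with a 250 bp window, fell to 0 among the 2044 highest IDR peaks, and ran from 0 to 1 with a single replicate's highest candidates, being 0 without replicate 1. With the 2044 highest peaks the counts were 1 for other transcription kinases and cyclins (2 reported) and 2 for RNA polymerase II subunits (4 reported), and 8.05% of all genes (14.1% reported). With a single replicate the kinase and cyclin count ran from 1 to 2, being 1 without replicate 2. The IDR summits near the members (5) fell to 3 with a 2 kb flank, which leaves out the sites at CG10584 and Papss, and member summits with a listed word (1) rose to 3 within 100 bp. Core Mediator stayed at 4 to 8 genes.

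With 2 replicates and unknown depth, the lists give no error for a score. The site of IDR rank 12 was within the first 12 of every list. By contrast, the skd–Pdss2 site rests on replicate summits far apart, and the rank 1416 site of skd on 1 replicate. Control peaks were not analysed here, and whether these sites need the tagged protein was not tested.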

Other observations

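A long mobile element, Tirant, is annotated inside skd at chr3L:21014969-21023393, 8425 bp within intron 2 of all 4 transcripts, an intron of 12.4 kb. No summit of any of the 4 lists lay inside it. The nearest pooled summits were 135 bp before and 218 bp after the element, so candidates of skd came close to both of its ends. A roo element of 9130 bp in Papss, 3′ of kto, also held none in any of the 4 lists, with pooled summits 497 bp before and 3673 bp after it. Of the 695 annotated mobile elements of 5 kb or longer on the 6 arms, 692 (99.6%) held no pooled summit. Read placement in such elements was not tested.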
